A study of Mus musculus with 6 samples.

Results

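The type 2 cytokine locus of the mouse was examined in eosinophils cultured from bone marrow and exposed to IL-33. The genes are Il4, Il13 and Il5, their neighbours Rad50 and Kif3a, and Il3 and Csf2, which lie nearby on chromosome 11. They were chosen by gene symbol, and all 7 were found among the 23420 genes of the table. Wild-type bone marrow cells had grown in stem cell factor and FLT3 ligand, each at 100 ng/mL, until day 4 and then in IL-5 at 20 ng/mL. On day 14, after removal of dead cells, the cells of 3 libraries received IL-33 at 2.5 ng/mL for 3 h and those of the other 3 libraries received phosphate-buffered saline (PBS). All cells of both groups had therefore matured in added IL-5. Where the values of all libraries of a group are listed, they stand in the order of replicates 1, 2 and 3. The labels name no mouse strain, age or sex, nor do they say if libraries of a group came from separate animals or cultures. What the p-values measure is therefore the spread among these libraries, possibly a technical one.

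IL-4 and IL-13 are related cytokines of type 2 immunity that share the receptor chain encoded by Il4ra, and IL-5 is the main growth and survival factor of eosinophils. In T helper 2 cells the genes Il4, Il13 and Il5 are controlled together, in part through a control region inside Rad50, whose own product repairs DNA breaks. IL-3 and GM-CSF, the product of Csf2, also act on eosinophils and signal through the same common beta chain as IL-5. Eosinophils are known as a source of IL-4 and IL-13, and IL-33 is an alarmin that acts on type 2 immune cells.

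The 7 genes span 699.9 kb in the GENCODE vM21 annotation of GRCm38 (mm10). In order along chromosome 11 they are Kif3a (53567379 to 53601967, plus strand), Il4 (53602982 to 53618669, minus strand), Il13 (53631324 to 53634702, minus strand), Rad50 (53649519 to 53707319, minus strand), Il5 (53720794 to 53725106, plus strand), Csf2 (54247271 to 54249667, minus strand) and Il3 (54265303 to 54267277, minus strand). The annotated ends of Kif3a and Il4 are 1.01 kb apart, and the start site of Il4 is 12.7 kb from the end of Il13. Exons of Kif3a, Il4, Il13, Rad50 and Il3 overlap no exon of another annotated gene. Without regard to strand, exons of other annotated genes overlap 27.1% of the exonic bases of Il5 (Gm12214) and 12% of those of Csf2 (Gm12223). How strand was treated in the counting is not given in the sources used here, so reads of such pairs cannot be told apart.

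The promoters of the 3 classical type 2 cytokine genes are shown because the genes lie together and their transcripts differed in level and in change. Each line gives RefSeq sequence of GRCm38.p6, from 250 bases before the start site through 50 bases from the start site on. Windows are chr11:53634653-53634952 for Il13 and chr11:53618616-53618915 for Il4, both on the minus strand, and chr11:53720544-53720843 for Il5 on the plus strand. For Il4, which has another RefSeq start site inside the gene, the window at the upstream one is shown. Capitals mark matches to GATA words and to the NFAT core GGAAA, on either strand. The GATA words searched were AGATAA, its variant AGATAG, the word TGATAA and its variant TGATAG.
Il13: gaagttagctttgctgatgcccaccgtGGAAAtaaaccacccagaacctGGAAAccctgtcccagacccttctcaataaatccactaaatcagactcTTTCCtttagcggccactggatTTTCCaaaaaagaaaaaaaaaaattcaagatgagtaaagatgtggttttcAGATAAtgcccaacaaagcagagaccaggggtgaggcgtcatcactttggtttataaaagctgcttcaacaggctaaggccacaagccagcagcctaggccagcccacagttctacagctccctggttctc
Il4: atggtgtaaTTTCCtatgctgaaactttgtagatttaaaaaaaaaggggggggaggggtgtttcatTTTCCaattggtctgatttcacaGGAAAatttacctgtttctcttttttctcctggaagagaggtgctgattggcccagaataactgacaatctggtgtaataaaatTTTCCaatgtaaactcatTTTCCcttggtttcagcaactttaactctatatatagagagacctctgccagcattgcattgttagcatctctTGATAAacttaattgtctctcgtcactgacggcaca
Il5: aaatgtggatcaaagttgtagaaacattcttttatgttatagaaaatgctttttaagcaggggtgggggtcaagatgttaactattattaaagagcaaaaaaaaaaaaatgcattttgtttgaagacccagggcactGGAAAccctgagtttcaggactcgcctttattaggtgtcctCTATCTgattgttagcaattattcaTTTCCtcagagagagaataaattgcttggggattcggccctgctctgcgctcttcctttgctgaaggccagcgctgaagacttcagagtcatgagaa

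GATA factors and NFAT are known regulators of these genes. The Il13 window held 1 GATA match, which began 81 bases before the start site, and 4 NFAT cores. The Il4 window held 1 GATA match, which began at base 15 on the transcribed side of the start site, and 5 NFAT cores. The Il5 window held 1 GATA match, which began 72 bases before the start site, and 2 NFAT cores. Such words are common: 29.8% of the 32851 promoter windows of this length hold a GATA word and 61.3% an NFAT core. A C/EBP word (TTGCNNAA, 10.8% of windows) was found in the Il4 and Il5 windows and not in the Il13 window. The STAT6 consensus (6.95% of windows) was found in the Il4 window, where it overlapped an NFAT core, and not in the other two. None of these 3 windows held an AP-1 word (TGANTCA, 7.81% of windows) or the NF-kB consensus (4.51% of windows). A match is only a match of letters in these windows.

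Between 4229504 and 7129435 reads per library fell on genes other than Rn45s, which encodes the precursor of ribosomal RNA. Rn45s took 13.7% to 24.8% of the reads in the PBS libraries, and 24.3%, 59.6% and 54.8% with IL-33. All 11 eosinophil markers in the table were detected in each PBS library, and in each IL-33 library except Ear2, which was at 0 in IL-33 replicates 2 and 3. Their summed normalized count was 52964 to 63993 in PBS and 19285 to 31963 after IL-33. Of all genes tested 14.4% were called lower, and of the 11 markers 10 were. Among them Ear2 reached the filter value in the PBS libraries only and could be called in no other direction, which leaves 9. Leaving out a library changed the count of 10 to between 5 (without PBS replicate 2) and 11. It was 6 without PBS replicate 1 or 3 and 6 with the Rn45s share as a covariate. Ear2 was not tested when a PBS library was left out. Values are normalized counts, the read count of a gene divided by 1 factor per library by the authors. Genes were tested with limma on log2(normalized count + 1) when at least 3 libraries reached 10, and were called at a Benjamini-Hochberg adjusted p under 0.05 over all 10544 genes tested. Fold changes are on that log2 scale, on which changes of low genes come out too small. In bulk RNA, fewer cells of a type and less RNA per cell cannot be told apart.

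Of the 7 locus genes, 4 passed the filter on low values (Il13, Il4, Rad50 and Kif3a), and Il5, Il3 and Csf2 did not. Among those tested, Il13 rose after IL-33 and Kif3a fell, while Il4 and Rad50 were not called. Across all genes tested, 17.4% were called higher, 14.4% were called lower and 31.9% were called in either direction. The groups were without overlap in 50.2% of all genes tested, with the IL-33 values above in 25.5% and below in 24.7%. The split of 1837 higher and 1522 lower genes became 255 and 5376 when the libraries were scaled to equal totals, and 942 and 3597 when Rn45s was left out of those totals. Calls also depended on single libraries, with 2910 higher and 2950 lower when IL-33 replicate 1 was left out and 874 and 749 for IL-33 replicate 2. Leaving out PBS replicate 1 gave 1108 and 595, PBS replicate 2 gave 782 and 357, and PBS replicate 3 gave 695 and 318.

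**Figure D1:**
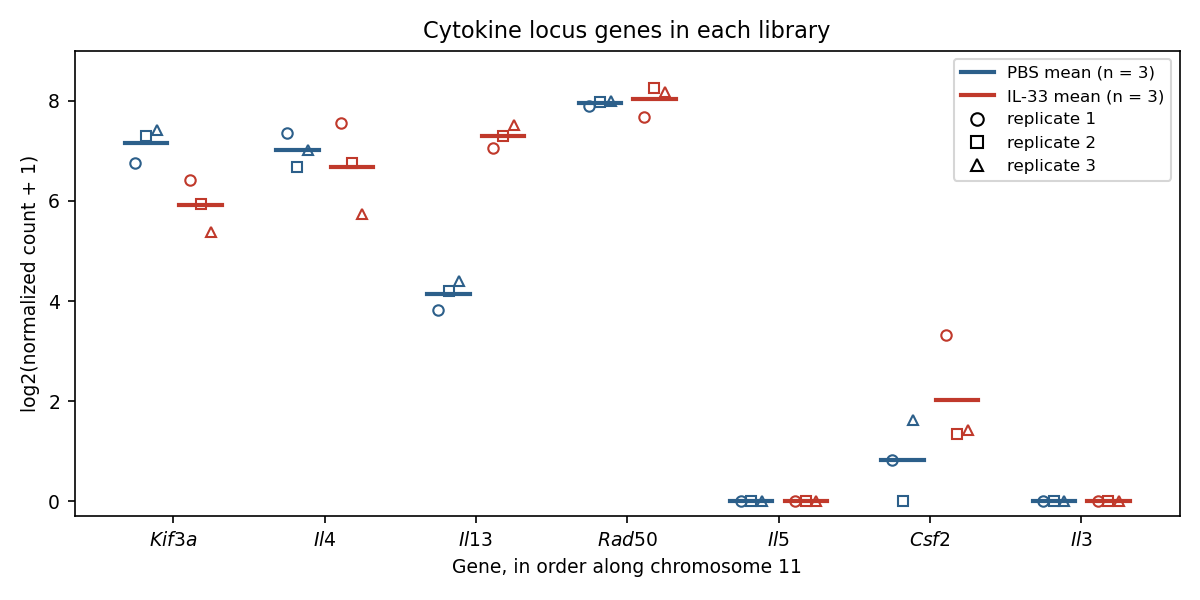
Level of each locus gene in each library, as log2(normalized count + 1) on the vertical axis, for PBS (blue) and IL-33 (red), with horizontal lines for the group means (n = 3). Il13 is separated between the groups, Il4 and Rad50 overlap, Kif3a lies lower in each IL-33 library, and Il5 and Il3 are at 0 throughout.

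Il13, the effector cytokine of type 2 immunity that acts on epithelium and smooth muscle, had the largest log2 change of the 4 locus genes tested. Its normalized count was 132, 155 and 183 with IL-33 and 13.2, 17.5 and 20.3 with PBS. The lowest IL-33 library lay far above the highest PBS library. The mean went from 17.0 ± 3.56 (SD, n = 3) to 157 ± 25.5 (SD, n = 3), a ratio of 9.24. The log2 fold change was 3.14 (SE 0.26, 95% interval 2.55 to 3.73, adjusted p = 2.46e-04, limma), which was rank 71 from the top among all genes tested. Behind these values stood 147, 101 and 108 reads with IL-33 and 17, 24 and 29 with PBS. Il13 was called higher under each of 19 alternative settings, at log2 fold changes of 2.12 to 3.33, and at 3.01 (adjusted p = 0.00137, limma) with the Rn45s share as a covariate. The lowest value came from scaling the libraries to equal totals, which moved the median of all genes from −0.03 to −1.07 on the same scale.

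Il4, which drives the differentiation of T helper 2 cells and antibody switching to IgE, did not pass the test. Its normalized count was 187, 108 and 52.5 with IL-33 and 164, 102 and 129 with PBS. The IL-33 libraries held both the highest and the lowest value, and the groups overlapped. Means were 132 ± 31.1 (SD, n = 3) in PBS and 116 ± 67.6 (SD, n = 3) after IL-33, with a log2 fold change of −0.34 (SE 0.43, 95% interval −1.32 to 0.64, adjusted p = 0.557, limma). That interval spans both a fall and a smaller rise. When IL-33 replicate 1 was left out Il4 was called lower (−0.77, adjusted p = 0.0465, limma), and for IL-33 replicate 3 the sign turned (0.13, adjusted p = 0.764, limma). Scaled to equal totals it was −1.37 (adjusted p = 0.0773, limma). With the Rn45s share as a covariate the fold change was 0.48 (adjusted p = 0.551, limma). The part of the Rn45s share in the spread of Il4 was not tested further.

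Because Il13 and Il4 are neighbours of similar exonic length, their reads were compared within each library, a measure that does not depend on the scaling between libraries. Il13 took 41.4% of the reads of both genes in IL-33 replicate 1 (95% Wilson interval 36.4% to 46.6%), 59.1% in replicate 2 (51.6% to 66.2%) and 77.7% in replicate 3 (70.1% to 83.8%). In PBS replicates 1, 2 and 3 the share was 7.46% (4.71% to 11.6%), 14.6% (10.0% to 20.9%) and 13.6% (9.60% to 18.8%). Each IL-33 library lay above each PBS library, and the IL-33 libraries also differed from one another by more than counting error. The intervals cover counting error only, since reads lacking molecular identifiers may copy the same molecule. The mean log2 ratio of Il13 to Il4 was −2.88 ± 0.58 (SD, n = 3) in PBS and 0.60 ± 1.14 (SD, n = 3) after IL-33. The difference was 3.48, with a two-sided exact permutation p = 0.1, the smallest that 3 against 3 libraries can give. Leaving out each library in turn gave differences of 2.89 to 4.03.

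**Figure D2:**
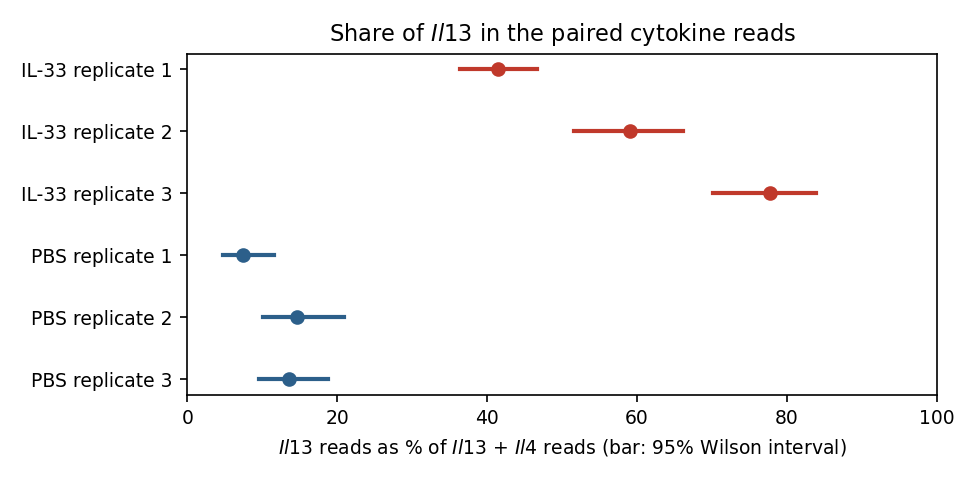
Share of Il13 among the reads of Il13 and Il4 together, in percent on the horizontal axis, for each library, with bars for the 95% Wilson interval. The IL-33 libraries (red) lie at 41.4% to 77.7%, all above the PBS libraries (blue) at 7.46% to 14.6%.

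Kif3a, which encodes a motor subunit of kinesin-2 needed to build cilia and lies beside Il4, was lower after IL-33. Its normalized count was 84.5, 59.98 and 40.7 with IL-33 and 107, 156 and 170 with PBS. All IL-33 libraries lay below all PBS libraries, with IL-33 replicate 1 and PBS replicate 1 closest to each other. The mean went from 144 ± 32.9 (SD, n = 3) to 61.7 ± 22.0 (SD, n = 3), a log2 fold change of −1.25 (SE 0.31, 95% interval −1.96 to −0.53, adjusted p = 0.02, limma). The call was lost when IL-33 replicate 2 was left out (−1.26, adjusted p = 0.0649, limma). The same happened for PBS replicate 2 (−1.18, adjusted p = 0.0863, limma) and for PBS replicate 3 (−1.11, adjusted p = 0.0991, limma). It was also lost with the Rn45s share as a covariate (−0.66, adjusted p = 0.246, limma).

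Rad50, a subunit of the MRE11 complex at DNA breaks, showed no called change. It had 204, 306 and 286 normalized counts with IL-33 and 238, 250.3 and 256 with PBS. The PBS libraries were close together, and the IL-33 libraries lay on both sides of them. Means were 248 ± 8.88 (SD, n = 3) in PBS and 266 ± 54.1 (SD, n = 3) after IL-33, with a log2 fold change of 0.08 (SE 0.20, 95% interval −0.39 to 0.54, adjusted p = 0.79, limma). Scaled to equal totals, Rad50 was called lower (−0.96, adjusted p = 0.0236, limma), a setting that lowered the median of all genes as given above.

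**Figure D3:**
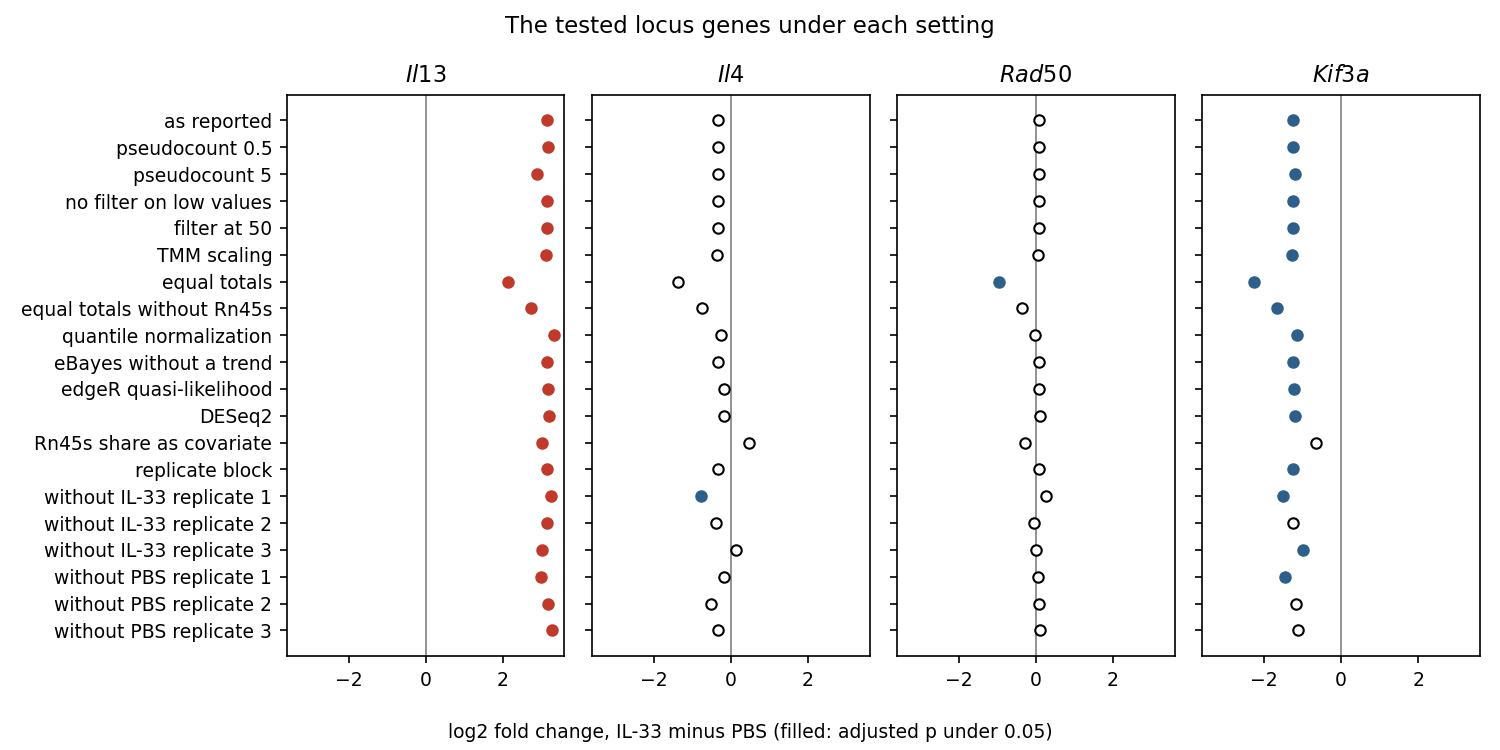
Log2 fold change (IL-33 minus PBS, horizontal axis) of the 4 locus genes that passed the filter, under the reported fit and each of 19 alternative settings (vertical axis), with filled points for an adjusted p under 0.05. Il13 is filled at 2.12 or more in each setting, while Kif3a loses its call in 4 settings and Il4 gains one without IL-33 replicate 1.

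Il5 and Il3 had no read in any of the 6 libraries. Over the summed reads on genes other than Rn45s, a count of 0 allows up to 3 of 15714525 reads in the IL-33 group and 3 of 20576689 in the PBS group. In normalized counts this limit, 3 reads, was 2.70, 4.61 and 5.08 with IL-33 and 2.10 to 2.33 with PBS. Transcripts of both genes were thus not detectable at this depth in cells that had matured in added IL-5.

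Csf2, which encodes GM-CSF, was detected with few reads. Its normalized count was 8.99, 1.54 and 1.69 with IL-33 and 0.777, 0 and 2.10 with PBS. Of its 16 reads, 12 came from the IL-33 libraries, and 10 of these from IL-33 replicate 1. The ratio of IL-33 to PBS after scaling was 5.22 (95% exact interval 1.58 to 22.2, counting error only), and 1.65 (0.149 to 11.5) without IL-33 replicate 1. The higher value thus rests on 1 library, and no test was made.

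Per kb of exon, which allows levels of different genes to be set side by side, Il4 was the highest of the locus genes in PBS. Its level was 107 ± 25.3 normalized counts per kb (SD, n = 3), followed by Rad50 at 46.2 ± 1.65, Kif3a at 40.2 ± 9.16, Il13 at 14.1 ± 2.95 and Csf2 at 1.20 ± 1.33. Rad50 and Kif3a did not differ beyond their spread, and the other neighbours in this order did not overlap. After IL-33 the order was Il13 at 130 ± 21.1 normalized counts per kb, Il4 at 94.3 ± 55.1, Rad50 at 49.4 ± 10.1, Kif3a at 17.2 ± 6.13 and Csf2 at 5.09 ± 5.32 (each SD, n = 3). Here Il13 overlapped Il4, and Il4 overlapped Rad50, while Rad50, Kif3a and Csf2 were separated from each other in each library. Il13 thus moved from below Rad50 and Kif3a in each PBS library to above both in each IL-33 library.

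The wider neighbourhood on chromosome 11 was described with 20 genes around the locus, of which 19 were in the table and 11 were tested. None of the 11 was called in either direction, against 31.9% of all genes tested, and 3 had groups that did not overlap, against 50.2%. Their median log2 fold change was −0.30, beside −0.03 for all genes. At an unadjusted p under 0.05, 2 of the 11 passed in limma, both higher, and DESeq2 called 1 higher and edgeR none. Irf1, an interferon response factor gene that starts 135 kb from Il13, had 326, 228 and 273 normalized counts with IL-33 and 332, 367 and 362 with PBS. All its IL-33 values lay below all its PBS values (log2 fold change −0.37, SE 0.19, adjusted p = 0.158, limma), and it was called lower without IL-33 replicate 1 (−0.50, adjusted p = 0.0188, limma). Uqcrq, a subunit gene of respiratory complex III, had the highest log2 fold change of the neighbours (0.71, SE 0.27), and Zcchc10 the lowest (−0.91, SE 0.48). The counts depended on the settings. Leaving out IL-33 replicate 1 gave 1 higher and 4 lower neighbours, leaving out IL-33 replicate 3 gave 1 higher, and scaling to equal totals called 7 lower with Rn45s and 4 without it. Quantile normalization called 1 higher and 1 lower, and the fit without a variance trend called 1 higher.

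**Figure D4:**
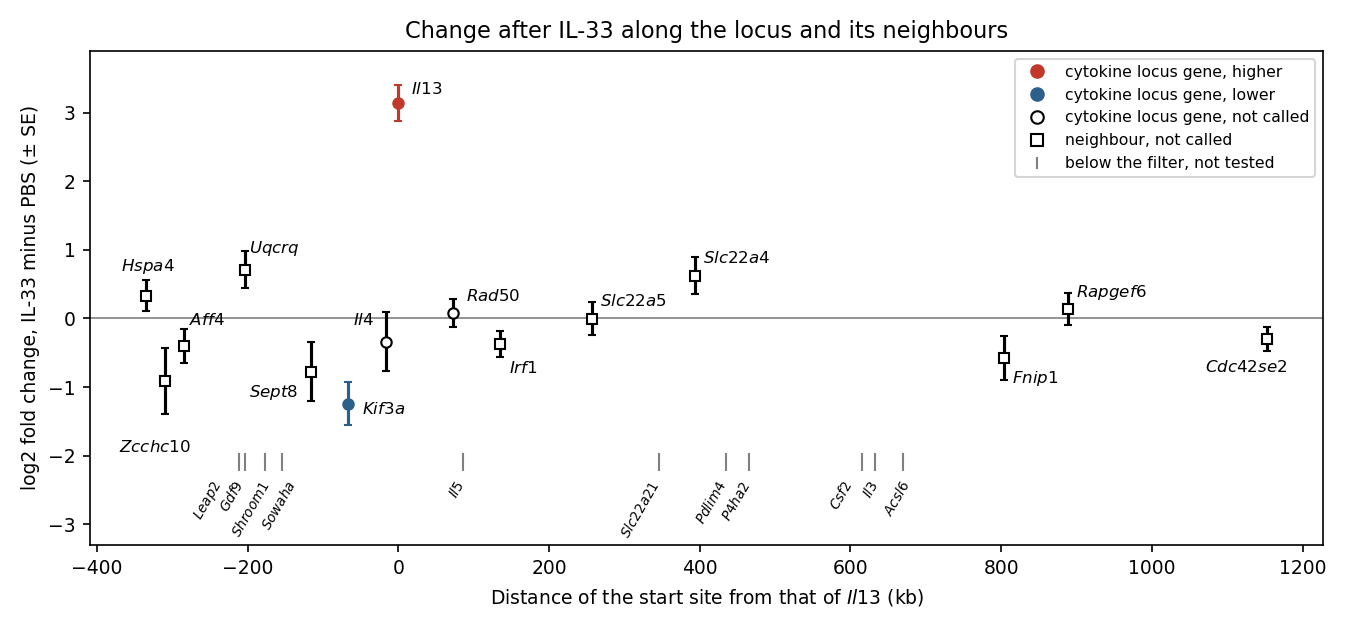
Log2 fold change (IL-33 minus PBS, vertical axis, bars are SE) against the distance of each start site from that of Il13 in kb, for the locus genes (circles) and their neighbours (squares), with ticks for genes below the filter. Il13 at 3.14 stands above genes on both sides of it, which lie between −1.25 and 0.71.

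Of 9 genes for receptor chains of these cytokines, 7 were tested, of which 4 were higher, 1 lower and 2 not called (median log2 fold change 1.04, against −0.03 for all genes). Over all genes tested, 17.4% were higher and 14.4% lower. Il4ra, the chain shared by the receptors for IL-4 and IL-13, went from 376 to 466 normalized counts in the PBS libraries to 1202, 1304 and 1642 with IL-33 (a log2 increase of 1.70, SE 0.18). Il2rg, the common gamma chain that pairs with it in the IL-4 receptor, rose as well (1.70, SE 0.21). Il13ra1, the partner chain for IL-13, was below the filter, at 4.61 to 12.6 normalized counts after IL-33 and 6.21 to 6.55 in PBS, and Il13ra2, a decoy receptor gene, was at 0 in each library. Il5ra was the gene that fell, from 248 to 322 normalized counts in the PBS libraries to 72.8, 53.8 and 25.4 with IL-33 (−2.53, SE 0.36). Il3ra (1.22, SE 0.39) and Csf2ra (1.04, SE 0.34) were called, but neither without any one of IL-33 replicates 2 or 3 or PBS replicates 1, 2 or 3, which left 2 higher. With the Rn45s share as a covariate, Il3ra was at 0.12 (adjusted p = 0.792, limma) and Csf2ra at 0.11 (adjusted p = 0.781, limma). Scaled to equal totals, 0 receptor genes were higher and 3 lower, and without Rn45s 2 and 1. Quantile normalization called 2 receptor genes lower. Csf2rb and Csf2rb2, whose near-identical sequences may share reads, were not called in the reported fit.

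Transcription factors and chromatin proteins known to control the locus changed in both directions. Of 45 listed, 43 were in the table and 38 were tested, of which 16 were higher, 5 lower and 17 not called, with a median log2 fold change of 0.39. The shares over all genes tested were 17.4% higher and 14.4% lower. Gata3, which encodes the master regulator of the locus in T helper 2 cells, had no read in any library. Its relative Gata1, which acts in eosinophils, went from 1307 to 1460 normalized counts in the PBS libraries to 2748, 3820 and 5774 with IL-33 (1.53, SE 0.26). Gata2 was not called, at 358, 637 and 461 normalized counts with IL-33 and 699.7, 639.5 and 488 with PBS. It was called lower with the Rn45s share as a covariate (−0.91, adjusted p = 0.0333, limma), with equal totals (−1.39, adjusted p = 0.00753, limma) and without Rn45s in the totals (−0.78, adjusted p = 0.0319, limma). The NF-kB subunit genes Nfkb1 (3.12, SE 0.17) and Rel (2.44, SE 0.23) and the C/EBP genes Cebpa (2.79, SE 0.30) and Cebpb (2.75, SE 0.30) had the 4 largest log2 increases of the list. Scaled to equal totals, Gata1 was not called (0.49, adjusted p = 0.153, limma).

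NFAT factors, which carry calcium signals to cytokine promoters, changed in both directions, with Nfatc3 higher (log2 fold change 0.71, SE 0.17) and Nfatc1 and Nfatc2 lower. Nfatc2 fell from 179 to 252 normalized counts in the PBS libraries to 85.4, 90.7 and 119 with IL-33 (log2 fold change −1.13, SE 0.22), a call that was lost when PBS replicate 2 (−1.02, adjusted p = 0.0526, limma) or 3 (−1.12, adjusted p = 0.0514, limma) was left out. Nfatc1 (−0.67, SE 0.22) was not called without any one library other than IL-33 replicate 1. Satb1, an organizer of the chromatin of this locus, fell (−1.85, SE 0.23), and so did Ezh2, a histone methyltransferase that represses it (−1.67, SE 0.41). Ezh2 lost its call when IL-33 replicate 2 or any one PBS library was left out, and with the Rn45s share as a covariate. Stat6, which carries the IL-4 signal, was called at 0.55 (SE 0.16), was not called without any one library other than IL-33 replicate 1, and had a negative sign after scaling to equal totals (−0.49) and after quantile normalization (−0.02). Its call was also lost with the replicate number as a block (adjusted p = 0.057, limma) and with the Rn45s share as a covariate (0.47, adjusted p = 0.164, limma). For the whole list, leaving out PBS replicate 2 or 3 gave 9 or 8 higher genes and 1 lower gene each time. Leaving out IL-33 replicate 1, 2 or 3 gave 8, 2 or 3 lower genes, and leaving out PBS replicate 1 gave 2. Scaling to equal totals gave 5 higher and 17 lower, and without Rn45s 9 and 13. Quantile normalization, with a median log2 fold change of −0.06 over all genes, gave 10 higher and 11 lower.

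Genes that control the decay of cytokine transcripts numbered 12, all tested, of which 4 were higher, 1 lower and 7 not called (median log2 fold change 0.15). Over all genes tested, the shares were 17.4% higher and 14.4% lower. Zc3h12a, which encodes the RNase Regnase-1, went from 143 to 163 normalized counts in the PBS libraries to 1877, 1999 and 2447 with IL-33 (3.79, SE 0.17). Zfp36l1 (1.04, SE 0.29), Zfp36 (0.79, SE 0.20), which encodes tristetraprolin, and Rc3h2 (0.77, SE 0.18), which encodes Roquin-2, were also called. Leaving out IL-33 replicate 2 or PBS replicate 2 or 3 left Zc3h12a as the 1 gene called higher. Tia1, a translational silencer, fell (−1.41, SE 0.27), but lost its call when PBS replicate 3 was left out (−1.38, adjusted p = 0.0519, limma) and with the Rn45s share as a covariate. Lower genes numbered 5 without IL-33 replicate 1. With equal totals 1 was higher and 5 lower, and without Rn45s 1 and 3, and the signs of Zfp36 (−0.25) and Rc3h2 (−0.27) turned with equal totals. Quantile normalization gave 2 higher and 2 lower.

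Partners of Kif3a in kinesin-2 and intraflagellar transport, the movement of cargo in cilia, were lower or not called. Over all genes tested, 17.4% were higher, 14.4% lower and 31.9% called in either direction. Of 15 listed genes 11 were tested, of which 0 were higher, 4 lower and 7 not called, with a median log2 fold change of −0.60. At an unadjusted p under 0.05 in limma 1 was higher, and edgeR and DESeq2 called 0 higher. Of the 4, Ift88 reached the filter value in the PBS libraries only (10.9, 11.6 and 16.8 normalized counts, against 4.495, 3.08 and 0 with IL-33), so it could be called in no other direction. The other 3 were Ift140 (−1.61, SE 0.45), Ift52 (−1.45, SE 0.44) and Kif3b, the partner motor subunit (−0.77, SE 0.19). With the Rn45s share as a covariate none of the list was called lower, and leaving out IL-33 replicate 2 or PBS replicate 2 or 3 had the same result. Leaving out PBS replicate 1 left 1. Ift88 was not tested when a PBS library was left out, since it then missed the filter. Without IL-33 replicate 1, 2 were higher and 6 lower. Scaling to equal totals called 9 lower, and without Rn45s 7.

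Of 8 genes that work with Rad50 at DNA breaks, all were tested (median log2 fold change −0.41). Against 17.4% higher and 14.4% lower over all genes, 1 was higher, 2 lower and 5 not called. Rbbp8, which encodes the end-resection factor CtIP, was the higher one (1.44, SE 0.35), and the kinase gene Atm (−1.98, SE 0.28) and Brca1 (−1.24, SE 0.25) were the lower ones. Rbbp8 lost its call when IL-33 replicate 2 or any one PBS library was left out, or with the Rn45s share as a covariate, and Brca1 lost its call when PBS replicate 2 was left out (−1.14, adjusted p = 0.0563, limma). Mre11a (−0.62, SE 0.29) and Nbn (−0.13, SE 0.43), whose products form the complex with Rad50, were not called. Without IL-33 replicate 1, 4 were lower, and with equal totals 0 were higher and 6 lower, or 1 and 5 without Rn45s.

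**Figure D5:**
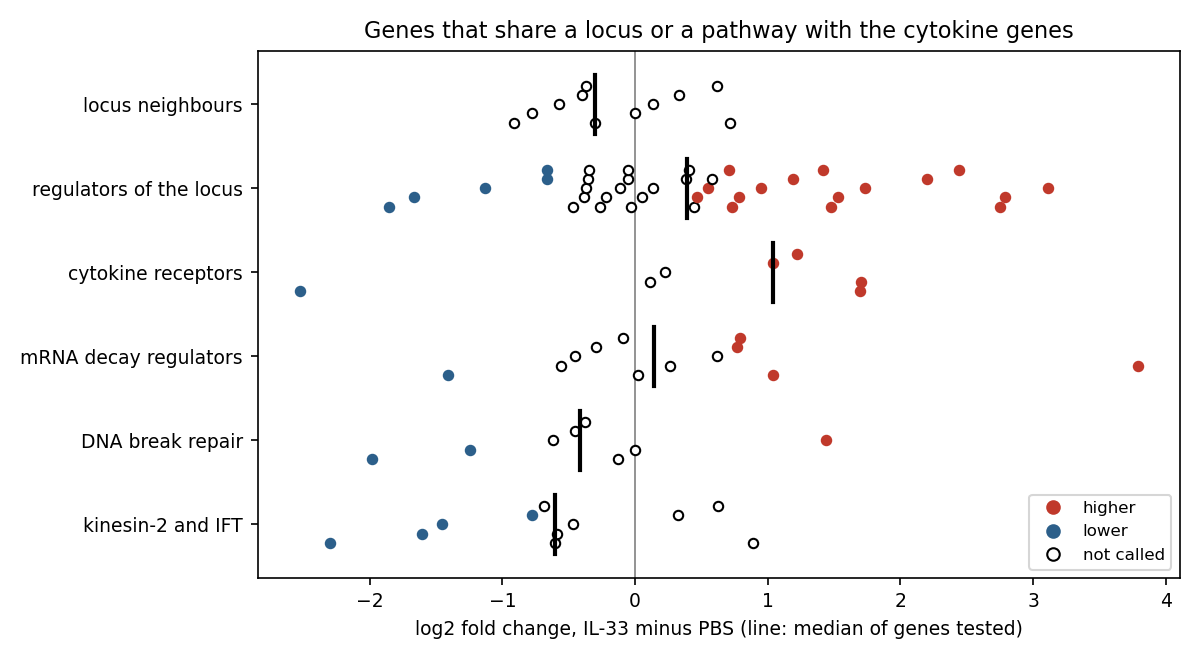
Log2 fold change (IL-33 minus PBS, horizontal axis) of each tested gene in 6 lists, with filled points for called genes and a vertical line for the list's median. Neighbours of the locus have no filled point, while its regulators and the cytokine receptor chains hold filled points on both sides of 0.

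Other ligands listed beside the type 2 cytokines were mostly below the filter on low values. Of 14 listed genes 3 were tested, and 2 of these were higher, against 17.4% of all genes tested. Il6 (log2 fold change 4.54, SE 0.55) had 567, 228 and 103 normalized counts with IL-33 and 6.99, 12.4 and 9.09 with PBS. Only replicate 2 of PBS reached the filter value, so Il6 passed the filter through its IL-33 libraries. The count of 2 higher genes includes it. Lif, a cytokine of the IL-6 family, had 38.7, 35.4 and 39.0 after IL-33 and 13.98 to 16.8 in PBS (1.27, SE 0.27), and lost its call when PBS replicate 2 was left out (1.24, adjusted p = 0.057, limma) or with equal totals (0.27). Ccl17, the other gene tested, had 21.6, 23.1 and 10.2 with IL-33 and 37.3, 21.8 and 12.6 with PBS, and was not called. Il9, Il25, Il33, Ccl1 and Ccl11 had no read in any library.

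Markers of other cells that can make IL-4 or IL-13 were also counted. Over all genes tested, 17.4% were higher and 14.4% lower. Of 13 mast cell and basophil markers 8 were tested, 0 were higher (1 at an unadjusted p under 0.05 in limma, 0 in edgeR and DESeq2) and 2 lower. Their summed normalized count was 3169 to 4627 after IL-33 and 2269 to 3954 in PBS, most of it from Hdc and Gata2. Mcpt8, a basophil protease gene, had 9.89, 24.6 and 37.3 normalized counts with IL-33 and 17.1, 36.4 and 65.7 with PBS. Prss34, another protease gene of the list, had 60.2, 137 and 256 with IL-33 and 90.1, 204 and 263 with PBS. Kit had 37.8, 23.1 and 27.1 with IL-33 and 28.7, 25.5 and 32.1 with PBS. Tpsb2 had 9.89, 18.5 and 23.7 with IL-33 and 6.21, 22.6 and 21.7 with PBS. Prss34, Kit and Tpsb2 were not called. Mcpt4 was at 0 in each library. The 2 lower genes were Cpa3, a mast cell protease gene, with 3.596, 7.69 and 5.08 normalized counts with IL-33 and 30.3, 44.4 and 58.0 with PBS, and Ms4a2, a chain of the IgE receptor, with 5.39, 4.61 and 1.69 against 10.1, 14.6 and 23.1. Both reached the filter value in the PBS libraries only, so they could be called in no other direction and were not tested when a PBS library was left out. Leaving out IL-33 replicate 2 or 3 gave 1 lower gene. Scaling to equal totals gave 6 lower, and 4 without Rn45s in the totals. Quantile normalization gave 1 lower, and the filter at 50 gave 0. The T cell and group 2 innate lymphoid cell list had a summed normalized count of 39.0 to 62.0 after IL-33 and 41.5 to 45.4 in PBS, and 2 of its 14 genes were tested. Neither was called by limma, edgeR or DESeq2, and 0 passed an unadjusted p under 0.05. The genes tested were Cd3d and Tcf7. Cd3d had 24.3, 21.5 and 11.9 normalized counts with IL-33 and 17.1, 16.7 and 11.2 with PBS. Tcf7 had 14.4, 4.61 and 13.6 with IL-33 and 9.32, 5.09 and 10.5 with PBS. Gata3 and Icos were at 0 in each library, and Cd3e was at 0 in the IL-33 libraries. Hdc had 4136, 3253 and 2352 normalized counts with IL-33 and 3058, 1476 and 1291 with PBS, and was not called. Klrg1, a lymphoid marker below the filter, had 10.8, 9.23 and 8.47 with IL-33 and 2.33, 3.64 and 6.29 with PBS. The reported fit called none of the mast cell, basophil or lymphoid markers tested higher. Without PBS replicate 1 or with the replicate block, 1 mast cell and basophil marker was called higher. The part of such cells in the Il4 and Il13 values was not tested further.

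Of 9 neutrophil markers 8 were tested, with 0 higher (0 at an unadjusted p under 0.05 in limma, 0 in edgeR and DESeq2) and 2 lower (summed normalized count 2273 to 2993 after IL-33 and 2826 to 3526 in PBS). The shares over all genes tested were 17.4% higher and 14.4% lower. The neutrophil markers called lower numbered 4 when IL-33 replicate 1 was left out, 1 for IL-33 replicate 2 or 3 or PBS replicate 1, and 0 for PBS replicate 2 or 3. They numbered 0 with the Rn45s share as a covariate, and 6 with equal totals or 4 without Rn45s in the totals. Of 12 macrophage and dendritic cell markers 8 were tested, with 3 higher (Emr1, which eosinophils also express, Csf1r and H2-Ab1) and 0 lower. The sum, 24541 to 31046 after IL-33 and 8278 to 11146 in PBS, came mostly from Emr1 and Csf1r. H2-Ab1 had 129, 73.8 and 131 normalized counts with IL-33 and 69.9, 24.0 and 48.9 with PBS (log2 fold change 1.29, SE 0.41). Cd74 and H2-Aa were not called, and C1qa, C1qb and C1qc stayed below the filter. With a library left out 2 to 3 of these markers were higher. Equal totals gave 0 higher and 1 lower, or 2 and 0 without Rn45s in the totals. B cell markers numbered 5, of which 1 was tested and not called, with sums of 32.2 to 52.1 after IL-33 and 48.7 to 67.8 in PBS. Their part in the cytokine values was not tested.

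Genes whose pattern over the 6 libraries was most like that of each locus gene were found by Pearson r of log2(normalized count + 1), among 7384 genes. With so few libraries such r are high for many genes and are a description only. For Il13 they were Cpsf1 (0.9997), Lsm14a (0.9968), Fbxw7 (0.9965) and Rhog (0.9949), all with smaller log2 fold changes of 0.76 to 0.87. For Il4 they were Med1 (0.9931), Ugt1a7c (0.9929), Usp4 (0.9915) and Ahcyl1 (0.9912). For Kif3a they were Ctps2 (0.9969), Tardbp (0.9966), Uggt1 (0.9953) and Chd8 (0.9946), and for Rad50 Tmem8 (0.9916), Gtpbp3 (0.9906), Ino80b (0.9882) and Tor1a (0.9795).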

How the data were processed

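Total RNA depleted of ribosomal RNA was sequenced from 6 libraries with a directional kit, per the labels' protocols. HISAT2, HTSeq, DESeq2 and the build mm10 are named in the submitters' processing notes. Not given in the sources used here are tool versions, the gene annotation and how strand was treated. The values deposited by the authors are a signal per gene, normalized counts, which came out as whole reads times 1 factor per library for 100% of values within 0.1 read.

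Log2(value + 1) of genes with at least 10 in at least 3 libraries was fitted with limma 3.58.1 (R 4.3.3, trended variance) and adjusted by Benjamini-Hochberg. Recovered read counts were tested with edgeR 4.0.16 and DESeq2 1.42.0 as alternatives. The fit was also run on simulated counts with the same spread setting for all genes and both groups. That setting does not cover the uneven spread and Rn45s share of these libraries, so no support is drawn from it. Depth was 8218303 to 10785521 reads per library. Within each group no libraries were duplicates, with chi-square per degree of freedom of at least 7.20. Pairs across the groups were not compared in this way. Coordinates are those of GENCODE vM21 (GRCm38), and promoters those of RefSeq (GRCm38.p6), which held 6 of the 7 genes.

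The genes and lists were chosen with earlier results of these data known. From each list, up to 4 called genes per direction with the largest change were named, or, for lists with fewer than 2 calls, at most 2 of the lowest p. All tested neighbours and Gata1, Gata2, Gata3, Stat6, Nfatc2, Irf1, Il4ra, Il13ra1 and Il5ra could be named too. For likeness, the 4 genes of highest r with a mean of at least 50 were taken, leaving out predicted gene models. Nfatc3, Il13ra2, Csf2rb, Csf2rb2, Mre11a, Nbn, Ccl17, genes at 0 and the cell type markers were named after their values were seen. Alternatives were pseudocounts of 0.5 and 5, no filter or a filter at 50, 4 other scalings, no variance trend, edgeR, DESeq2, the Rn45s share as a covariate, the replicate number as a block, and each library left out.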

Additional observations from a re-analysis of the deposited data

How the results depend on the processing

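The Il13 increase was called under each of the 19 alternatives (2.12 to 3.33, or 2.98 to 3.27 with a library left out). Il4 ranged from −0.77 to 0.13 with a library left out, being called lower without IL-33 replicate 1 (−0.77) and reversed without IL-33 replicate 3 (0.13) and with the Rn45s share as a covariate (0.48). Rad50 reversed with equal totals (−0.96), equal totals without Rn45s (−0.35), quantile normalization (−0.021), the covariate (−0.29) and without IL-33 replicate 2 (−0.037), and ranged from −0.037 to 0.25 with a library left out. Kif3a ranged from −1.50 to −0.98 with a library left out, without a call in 3 of those fits, and was −0.66 with the covariate. The Il13 to Il4 difference ranged from 2.89 to 4.03. The cause of these changes was not tested, apart from equal totals, which by construction lower all genes of libraries rich in Rn45s.

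Over all genes, calls higher and lower were 255 and 5376 with equal totals, 942 and 3597 without Rn45s in the totals, 914 and 642 with the covariate, and 695 to 2910 and 318 to 2950 with a library left out.

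Same-numbered libraries did not deviate together (r of 0.0459, 0.242 and −0.164), and only IL-33 replicate 2 correlated best with its own number. With the replicate number as a block, 1620 genes were higher and 1298 lower, Il13 was 3.14, Il4 −0.34, Rad50 0.08 and Kif3a −1.25 (adjusted p = 0.0363, limma), and the Il13 to Il4 difference of 3.48 had an exact sign-flip p = 0.25, the smallest that 3 pairs allow. The block left 13 regulators higher instead of 16 and 3 lower instead of 5, and among named genes it ended the calls of Stat6 (adjusted p = 0.057, limma), Nfatc1 (adjusted p = 0.067, limma) and Ift88 (adjusted p = 0.0505, limma). Of the mast cell and basophil markers it called 1 higher and 1 lower.

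Among other named genes, 629 values kept direction and call, 96 lost the call, 24 gained one and 21 reversed. With equal totals, Csf2ra (−0.00101), Hspa4 (−0.71), Rapgef6 (−0.90), Rc3h2 (−0.27), Slc22a4 (−0.37), Stat6 (−0.49), Uqcrq (−0.32) and Zfp36 (−0.25) reversed. Without Rn45s in the totals, Hspa4 (−0.094) and Rapgef6 (−0.29) did. Quantile normalization reversed Hspa4 (−0.039), Rapgef6 (−0.23), Slc22a5 (0.19) and Stat6 (−0.0167), and the covariate Aff4 (0.20) and Fnip1 (0.16). Without IL-33 replicate 1, Rapgef6 (−0.11) and Slc22a5 (0.12) reversed, and Slc22a5 also without IL-33 replicate 2 (0.0077), PBS replicate 2 (0.0069) and PBS replicate 3 (0.04). With a library left out, Rapgef6 ranged from −0.11 to 0.35 and Slc22a5 from −0.13 to 0.12.

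Depth limits Csf2, Il5 and Il3, for which 1 read was worth 0.699 to 1.69 normalized counts.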
